A study of Mus musculus with 70 samples.

Results

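The tamoxifen response of newborn Cx3cr1CreERT2(Jung) pups was examined in 9 of the 70 libraries of the series, chosen by title and treatment label. They comprised 4 libraries from pups given tamoxifen (TAM) and 5 from pups given the corn oil that carries it. Both groups were labelled Cx3cr1CreERT2(Jung) Hetero and Rosa26YFP Hetero, so the oil pups also carried the knock-in, which replaces 1 Cx3cr1 allele. The labels give pups 0.1 mg tamoxifen on P1 and P3 or 0.2 mg on P5 and P7, with ages of P8 or P14, and do not say which schedule or age belongs to which library. Each library was a bulk CEL-Seq2 library, a method that counts the 3' ends of transcripts, made from 15 of the 30 uL of lysate of 500 sorted brain cells. No group of Jung pups without Cre was included. An effect of tamoxifen itself and one that runs through CreERT2 therefore cannot be told apart in this comparison. No label says that replicates were separate animals, so p-values measure the spread between these libraries, which may be technical. The same count table held 10 Littman libraries, used for comparison: 5 Cre+ (Cx3cr1CreERT2(Litt) Hetero) and 5 Cre- (Cx3cr1+/+), all from tamoxifen-treated pups.

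CreERT2 is a Cre recombinase fused to a mutated estrogen receptor domain. Tamoxifen metabolites bind that domain and let the fusion protein enter the nucleus, where Cre cuts and rejoins DNA at loxP sites such as those of the Rosa26YFP reporter. Cx3cr1, the fractalkine receptor gene whose locus drives it, is active in microglia and in other mononuclear phagocytes. Microglia present peptides on MHC class I molecules, which pair a heavy chain, encoded in mice by genes such as H2-D1 and H2-K1, with the light chain beta-2-microglobulin, encoded by B2m. Interferons raise the transcription of these genes and of many antiviral genes, and p53 raises Cdkn1a, the gene of the cell cycle inhibitor p21, after DNA damage.

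The sort kept CD11b+ CD45+ cells and left out Ly6G+ and CD206+ cells. All 13 defining microglial genes were tested, and their summed level was 28635 to 31651 CPM in the tamoxifen and 31212 to 33539.6 CPM in the oil libraries. CPM are counts scaled to a common library total with TMM factors. Neutrophil markers were at 0 in all 9 libraries, and of the monocyte markers Ly6c2, Chil3 and Vcan were at 0. Plac8 and Ccr2 of the same list had 1 to 4 counts in the libraries that held them, and the list summed to 2.79 to 15.1 CPM in the tamoxifen and 2.61 to 11 CPM in the oil libraries. The border macrophage markers Ms4a7 and Pf4 were at 0, and Cd163, Lyve1 and Clec10a were absent from the deposited counts. The remaining ones summed to 208 to 281 CPM in the tamoxifen and 197 to 252 CPM in the oil libraries. Of these Mrc1, the gene of CD206, had 66.3 to 113 CPM after tamoxifen and 57.5 to 102 CPM after oil. Stab1 had 139 to 168 CPM after tamoxifen and 136 to 153 CPM after oil. Astrocyte markers summed to 138 to 251 CPM in the tamoxifen and 177 to 288 CPM in the oil libraries, and endothelial ones to 44.1 to 78.1 CPM in the tamoxifen and 43.8 to 63.7 CPM in the oil libraries. Oil replicate 1 held hemoglobin transcripts (142 counts of Hba-a1, against at most 3 in any other Jung library), and tamoxifen replicate 4 held 139 counts of Ttr, the choroid plexus transthyretin gene. Without the low-count filter edgeR called Hba-a1, Hba-a2 and Hbb-bs lower and Ttr higher after tamoxifen, with nearly all counts in those single libraries. Library totals were 329329 to 376017 counts in the tamoxifen group and 356883 to 399953 in the oil group. No difference in mean total was detected (exact two-sided permutation p = 0.111, smallest possible 0.0159), nor in the number of genes detected (12415 to 12879 against 12598 to 12873, exact permutation p = 0.302). In bulk samples, a smaller share of a cell type and less RNA per cell cannot be told apart.

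Tamoxifen left most transcripts of Jung microglia within the spread of the libraries, and the genes that rose were led by MHC class I. Of 7076 tested genes, edgeR's quasi-likelihood test called 6, or 0.0848%, at a Benjamini-Hochberg adjusted p below 0.05, all of them higher after tamoxifen: H2-D1, H2-K1, B2m, Sp100, Gm4951 and Rpl39. No gene was called lower by edgeR, DESeq2 or limma-voom, and 154 (2.18%) were lower at an unadjusted edgeR p below 0.05, against 238 (3.36%) higher. The median log2 fold change over all tested genes was 0.00051.

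H2-D1, a classical class I heavy chain gene at chr17:35262730-35267499 (GRCm38, plus strand), had 524, 606, 424 and 593 CPM in tamoxifen replicates 1 to 4, against 256, 225, 274, 292 and 252 CPM in oil replicates 1 to 5. Every tamoxifen library lay above every oil library, and tamoxifen replicate 3 was the lowest of its group. The mean was 537 ± 83.3 CPM after tamoxifen and 259.7 ± 24.9 CPM after oil (SD, n = 4 and 5), a 2.06-fold rise (log2 fold change 1.04 ± 0.119 SE, edgeR adjusted p = 1.39e-07). H2-K1, another classical heavy chain gene, lies at chr17:33996017-34000347 on the minus strand. It had 447, 597, 379 and 538 CPM after tamoxifen, against 235, 335, 298, 273 and 299 CPM after oil, a 1.7-fold rise (log2 fold change 0.76 ± 0.123 SE, edgeR adjusted p = 0.000449). Its groups did not overlap either, and tamoxifen replicate 3 was again the lowest of 4. B2m (chr2:122147686-122153083, plus strand) had 3910.3, 4207, 3907 and 4862 CPM after tamoxifen, against 3256, 3130.1, 3329, 3196 and 3601 CPM after oil, a 1.28-fold rise (log2 fold change 0.35 ± 0.0749 SE, edgeR adjusted p = 0.0371). Across the tested genes, every tamoxifen library lay above every oil library for 88 (1.24%), and below for 72 (1.02%).

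Leaving out any 1 of the 9 Jung libraries did not end the calls of H2-D1 or H2-K1, with edgeR adjusted p of at most 9.21e-06 and 0.0288. B2m kept its call without tamoxifen replicate 1 or 3 or oil replicate 5. It lost it without tamoxifen replicate 2 or 4 or any of oil replicates 1 to 4, where its log2 fold change was 0.28 to 0.36 and its edgeR adjusted p 0.0679 to 0.521. Its call was also lost without the low-count filter (edgeR adjusted p = 0.0812) and with the replicate number as a block (0.0561). Transcript counts of sex-linked genes put tamoxifen replicates 1 and 2 and oil replicates 1 to 3 in 1 sex and the others in the other. Within the male libraries the tamoxifen mean of H2-D1 was 2.24 times the oil mean, and within the female ones 1.87 times. For H2-K1 these ratios were 1.80 and 1.60, and for B2m 1.25 and 1.29.

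**Figure D1:**
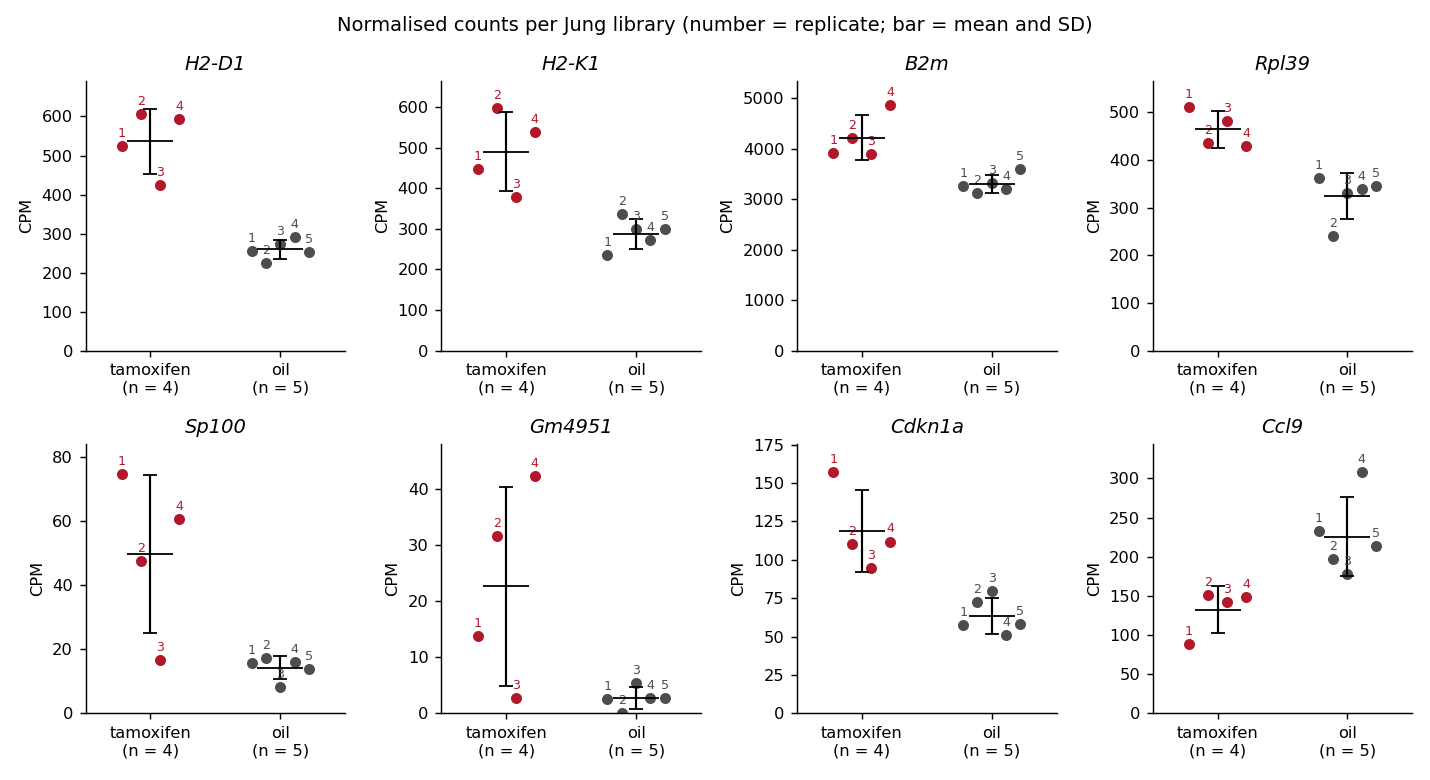
Normalised counts (CPM, linear axis from 0) of the 6 called genes and of Cdkn1a and Ccl9 in each Jung library, tamoxifen left of oil; points carry replicate numbers, and bars give mean and SD. The 4 tamoxifen libraries lie above all 5 oil libraries for H2-D1, H2-K1, B2m, Rpl39 and Cdkn1a and below them for Ccl9, whereas for Sp100 and Gm4951 tamoxifen replicate 3 lies among the oil libraries.

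The promoters of the 3 called class I genes are shown because these genes rose together. RefSeq start regions (GRCm38.p6; 250 bases before to 50 after the start) were searched on both strands for the NF-kB consensus, the interferon-stimulated response element core (GAAA, any 2 bases, GAAA), the TGACG of the X box and the CCAAT of the Y box. The stretch from the first match to the first Y box downstream of TGACG is given 5′ to 3′ on the gene's strand, with matches in capitals. ATTGG is CCAAT on the other strand, and of the 2 start regions listed for H2-K1 the 1 with the upstream start is used. The RefSeq start of H2-D1 lies downstream of the GENCODE M21 gene start given above, so its stretch falls inside the GENCODE gene span.
H2-D1, chr17:35262923-35263022, plus strand: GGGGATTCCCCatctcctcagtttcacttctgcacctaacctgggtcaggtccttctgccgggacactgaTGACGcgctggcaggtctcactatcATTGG
H2-K1, chr17:34000359-34000458, minus strand: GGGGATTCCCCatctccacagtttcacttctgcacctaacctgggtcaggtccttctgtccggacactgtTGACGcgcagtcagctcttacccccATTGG
B2m, chr2:122147548-122147638, plus strand: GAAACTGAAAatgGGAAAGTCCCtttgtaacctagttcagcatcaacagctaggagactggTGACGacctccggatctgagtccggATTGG
The H2-D1 and H2-K1 stretches opened with the same NF-kB match, which covers 2 overlapping hits, and were identical at 89 of 100 positions (89.0%). In B2m the interferon element core came first and the NF-kB match lay on the opposite strand. All 3 promoters held the NF-kB, TGACG and CCAAT motifs, a combination found in 0.642% of 32851 start regions. Alone, the NF-kB consensus was in 8.46% of them, TGACG in 20.8%, CCAAT in 37.4% and the interferon element core in 3.44%. The exact core had no match in the windows of H2-D1 and H2-K1. Looser forms of an interferon element were not searched, so their presence there was not tested. These matches describe letters, and binding was not measured.

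Reads from near-identical class I genes may be shared between them, and how the authors counted such reads is not given in the sources used here. Of 81-base windows in the last 500 bases of GENCODE M21 transcripts, the length of the sequenced insert, 0 of 821 for H2-D1 and 12 of 1323 (0.907%) for H2-K1 also occurred in a transcript of another gene. The 12 windows of H2-K1 were shared with 7 genes, among them H2-D1, H2-Q6, H2-Q7 and H2-T23.

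No other tested gene of the antigen presentation pathway passed the test in Jung pups. Of 18 tested genes of the class I list, 3 were called and 13 had a log2 fold change above 0, against 50.0% of all tested genes, and the list median was 0.12. Among the non-classical heavy chain genes, H2-M3, which presents formylated peptides, had 63.4, 41, 53 and 75.6 CPM after tamoxifen, against 23.5, 20.2, 27.4, 42.8 and 44.3 CPM after oil, with 1 tamoxifen library below the highest oil library (log2 fold change 0.87 ± 0.254 SE, edgeR adjusted p = 0.365). H2-Q7, which encodes a Qa-2 antigen, had 10 counts over the 4 tamoxifen libraries and 3 over the 5 oil libraries, a pooled ratio of 4.45 (exact 95% interval 1.15 to 25.2, counting error only; edgeR adjusted p = 0.834). It passed the low-count filter only with the Littman libraries included. H2-T23, which encodes Qa-1, had a log2 fold change of 0.25. The peptide transporter genes Tap1 and Tap2 had values of 0.07 and -0.04, and Tapbp, the gene of the loading factor tapasin, 0.17. The immunoproteasome genes Psmb9, Psmb8 and Psmb10 had log2 fold changes of 0.39, 0.17 and -0.02. The chaperone genes Calr, Canx and Pdia3 lay at -0.13, 0.03 and -0.13, and none of these 9 passed the test (edgeR adjusted p at least 0.929). For class II, which presents peptides to CD4+ T cells, 0 of 3 tested genes were called by edgeR, DESeq2 or limma-voom, with 1 at an unadjusted edgeR p below 0.05. That was H2-DMa, a peptide exchange factor gene, with 143, 164, 125 and 127 CPM after tamoxifen, against 117, 98.3, 98.6, 115 and 99.6 CPM after oil (log2 fold change 0.40 ± 0.153 SE, edgeR adjusted p = 0.819).

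Called genes outside antigen presentation included Sp100, which encodes a component of PML nuclear bodies and is itself interferon-inducible (chr1:85649988-85709998, plus strand). It had 74.5, 47.3, 16.7 and 60.5 CPM after tamoxifen, against 15.7, 17.3, 8.21, 16.1 and 13.8 CPM after oil, a 3.44-fold rise (log2 fold change 1.78 ± 0.356 SE, edgeR adjusted p = 0.0193). Tamoxifen replicate 3 lay within the oil range while the other 3 lay far above it. The call held without tamoxifen replicate 3 (log2 fold change 2.08, edgeR adjusted p = 0.000243) or oil replicate 2 (1.85, 0.039). It was lost without tamoxifen replicate 1, 2 or 4 or oil replicate 1, 3, 4 or 5 (1.5 to 1.83, edgeR adjusted p 0.0554 to 0.29), and limma-voom gave an adjusted p of 0.365. Gm4951, a predicted gene on chromosome 18 with the RefSeq synonym Ifgga2, was called from few molecules, with 5, 10, 1 and 14 counts in tamoxifen replicates 1 to 4 and 1, 0, 2, 1 and 1 in oil replicates 1 to 5 (log2 fold change 2.86 ± 0.63 SE, edgeR adjusted p = 0.0457). Here too tamoxifen replicate 3 overlapped the oil libraries. Its call held without tamoxifen replicate 1 or 3 (log2 fold change 3.04 and 3.24, edgeR adjusted p 0.038 and 0.0021), and was lost in the other 7 fits that left out 1 library (2.37 to 3.23, edgeR adjusted p 0.0731 to 0.585) and with DESeq2 (adjusted p 0.109) or limma-voom (0.562). With edgeR it was also lost with the replicate block (adjusted p 0.111) and the 20 CPM filter (0.051). In the fit of the Jung libraries alone Sp100 and Gm4951 fell below the low-count filter, so neither was tested there. The other 7 tested PML body genes were not called, and 4 of all 8 had a log2 fold change above 0.

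Genes of the type I interferon response list had mostly small positive differences, none of which passed the test. The called genes H2-D1, H2-K1, B2m and Sp100, which are also interferon-inducible, belong to other lists and are not counted here. Of 40 listed genes 23 were tested, and edgeR, DESeq2 and limma-voom called 0, while 3 were higher and 0 lower at an unadjusted edgeR p below 0.05. A log2 fold change above 0 was found for 20 of 23, against 50.0% of all tested genes, with a median of 0.23. With 1 oil library left out 17 to 20 of 23 were above 0, and with 1 tamoxifen library left out 16 to 20 of 24. In the fit of the Jung libraries alone 10 passed the low-count filter, 9 of them above 0, with a median of 0.20. The rest, Oasl2 and Ifit3 among them, passed that filter only with the Littman libraries included. Oasl2, an antiviral oligoadenylate synthetase-like gene, had 8.27, 28.4, 13.9 and 30.2 CPM after tamoxifen, against 2.61, 5.78, 8.21, 8.03 and 8.3 CPM after oil (log2 fold change 1.54 ± 0.494 SE, edgeR adjusted p = 0.517). Ifit3, whose product belongs to a family that binds viral RNA, had 22.1, 3.16, 13.9 and 27.2 CPM after tamoxifen, against 13.1, 2.89, 0, 5.35 and 5.54 CPM after oil (log2 fold change 1.56 ± 0.606 SE, edgeR adjusted p = 0.819). In both genes 3 of 4 tamoxifen libraries lay above all oil libraries, the exception being replicate 1 for Oasl2 and replicate 2 for Ifit3. Lgals3bp, the gene of a secreted galectin-3 ligand, had 168, 243, 165 and 233 CPM after tamoxifen, against 151, 153, 151, 126 and 183 CPM after oil (log2 fold change 0.40 ± 0.165 SE, edgeR adjusted p = 0.834), with tamoxifen replicates 2 and 4 above the oil range. The summed level of the 23 genes was 1211, 1184, 1009 and 1397 CPM in tamoxifen replicates 1 to 4, against 1104, 948, 1010.2, 899 and 1118 CPM in oil replicates 1 to 5, with tamoxifen replicate 4 highest and replicate 3 inside the oil range. For the 18 class I genes the sums were 8063, 8563, 7563 and 8917 CPM after tamoxifen, against 6689, 6688, 6836, 6918 and 7291 CPM after oil, and these groups did not overlap. The class I sums hold the 3 called genes H2-D1, H2-K1 and B2m, so they do not show a rise beyond those genes. The uncalled members were not summed apart.

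**Figure D2:**
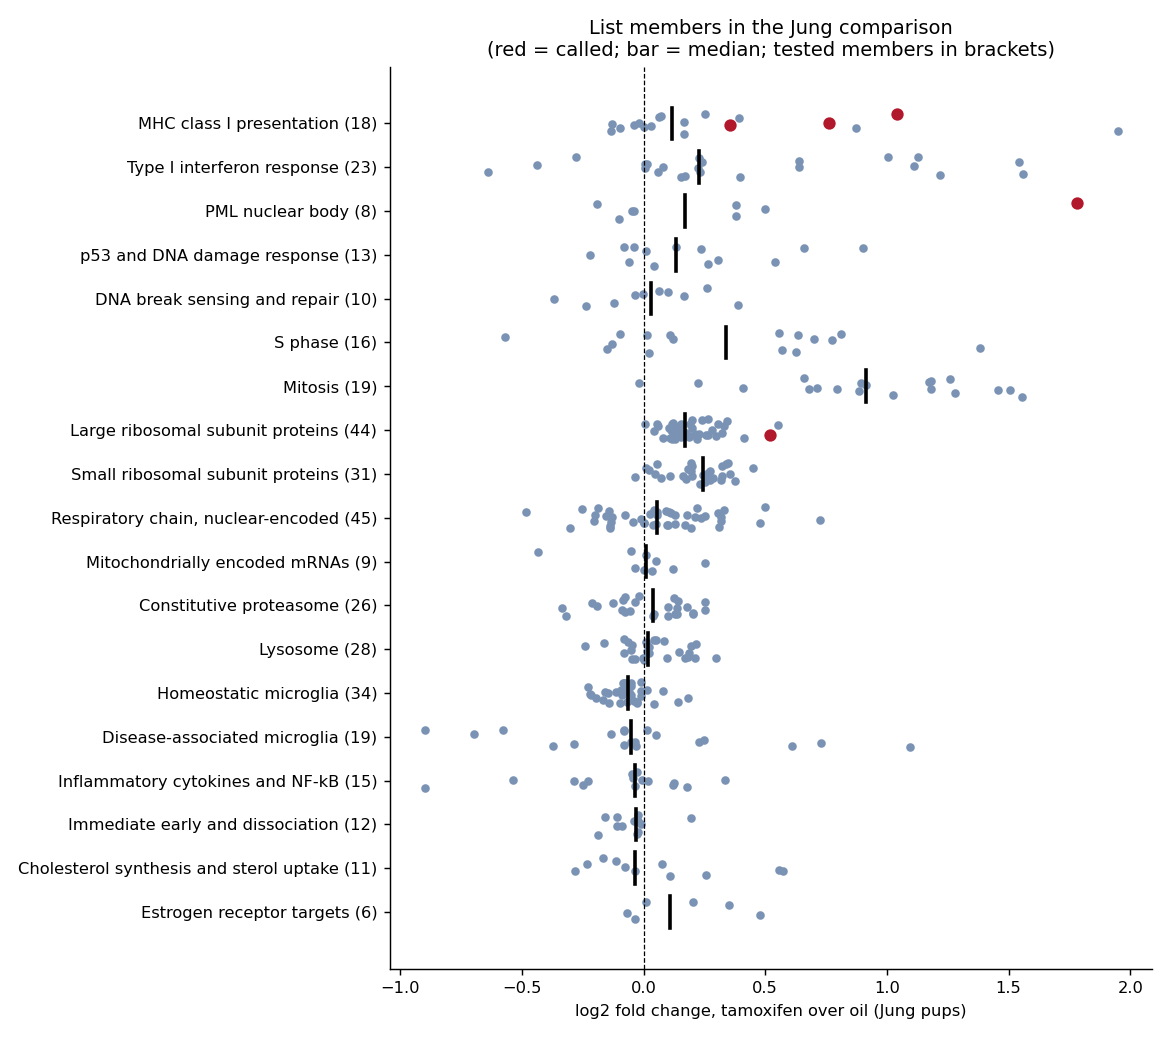
The log2 fold change (tamoxifen over oil) of each tested member of 19 gene lists, 1 list a row, with called genes in red and the list median as a black bar. The Mitosis median stands at 0.91, both ribosomal lists lie almost wholly to the right of 0, and the homeostatic list lies close to 0 on its left.

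Cdkn1a, the p21 gene at chr17:29090976-29100727, had 157, 110.5, 94.8 and 112 CPM after tamoxifen, against 57.4, 72.3, 79.4, 50.8 and 58.1 CPM after oil. All 4 tamoxifen libraries lay above all 5 oil libraries, yet the gene did not pass (log2 fold change 0.90 ± 0.224 SE, edgeR adjusted p = 0.173). It passed in a fit of the Jung libraries alone (edgeR adjusted p = 0.00808) and without a low-count filter (0.00187), and in none of the other 16 alternatives, where the adjusted p was 0.0749 to 0.694. Within male libraries its tamoxifen mean was 1.92 times the oil mean, and within female libraries 1.90 times. Of 13 tested p53 and DNA damage genes, 0 were called by edgeR, DESeq2 or limma-voom and Cdkn1a was the 1 gene with an unadjusted edgeR p below 0.05. Bbc3, which encodes the apoptosis inducer PUMA, had 8.27, 15.8, 36.3 and 30.2 CPM after tamoxifen, against 18.3, 11.6, 11, 5.35 and 24.9 CPM after oil (log2 fold change 0.66 ± 0.427 SE, edgeR adjusted p = 0.929). Trp53inp1, a p53-induced gene, had 33.1, 25.2, 44.6 and 30.2 CPM after tamoxifen, against 33.9, 26, 11, 26.8 and 16.6 CPM after oil (log2 fold change 0.54 ± 0.337 SE, edgeR adjusted p = 0.918). For both, tamoxifen replicate 3, the lowest of its group for H2-D1, H2-K1, Sp100 and Gm4951, was the highest. Among 10 tested DNA break sensing and repair genes 0 were called or had an unadjusted p below 0.05, 5 were above 0, and the median was 0.03. Of these Brca2, a homologous recombination gene, had 46.9, 41, 50.2 and 39.3 CPM after tamoxifen, against 36.6, 37.6, 30.1, 26.8 and 38.8 CPM after oil, without overlap (log2 fold change 0.39 ± 0.26 SE, edgeR adjusted p = 0.929).

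Proliferation genes had mostly positive differences, which were smaller without 1 tamoxifen library. Of 19 tested mitosis genes 18 had a log2 fold change above 0, against 50.0% of all tested genes, with a median of 0.91. At an unadjusted edgeR p below 0.05, 11 were higher, against 3.36% of all tested genes. That count includes tamoxifen replicate 1. Of the 19 mitosis genes 0 were called by edgeR, DESeq2 or limma-voom. Their summed level was 2223, 937, 973 and 989 CPM in tamoxifen replicates 1 to 4, against 987, 653, 704, 937 and 875 CPM in oil replicates 1 to 5. Tamoxifen replicate 1 stood far above every other Jung library, replicates 2 and 3 lay within the oil range, and replicate 4 lay just above it. Without replicate 1 the median was 0.36, with 17 of 20 tested members above 0. In the fit of the Jung libraries alone only 7 mitosis genes passed the low-count filter, all 7 above 0, with a median of 0.89. Mki67, the gene of the proliferation antigen Ki-67, had 292, 85.2, 72.5 and 72.6 CPM after tamoxifen, against 91.4, 20.2, 35.6, 50.8 and 91.3 CPM after oil (log2 fold change 1.18 ± 0.327 SE, edgeR adjusted p = 0.292). Top2a, which encodes the topoisomerase that untangles chromosomes, had 199, 50.5, 64.1 and 72.6 CPM after tamoxifen, against 60.1, 8.67, 16.4, 32.1 and 58.1 CPM after oil (log2 fold change 1.46 ± 0.397 SE, edgeR adjusted p = 0.27). Without tamoxifen replicate 1, the log2 fold change of Mki67 was 0.39 and that of Top2a 0.81. Both genes passed without the low-count filter and with the replicate number as a block, and Top2a also in the fit of the Jung libraries alone (log2 fold changes 1.18 to 1.71). Ect2, a cytokinesis regulator gene below the low-count filter, was called without it, with 14, 0, 3 and 6 counts after tamoxifen, against 1, 0, 0, 1 and 1 after oil (log2 fold change 3.10, edgeR adjusted p = 0.0153). Its groups overlapped, and tamoxifen replicate 1 was highest. For the 16 tested S phase genes the median was 0.34, and 0.04 without tamoxifen replicate 1. In the fit of the Jung libraries alone only 7 S phase genes passed the low-count filter, 5 above 0, with a median of 0.11. Rrm2, a ribonucleotide reductase subunit gene, had 57.9, 25.2, 2.79 and 12.1 CPM after tamoxifen, against 7.83, 5.78, 5.48, 18.7 and 8.3 CPM after oil (log2 fold change 1.38 ± 0.562 SE, edgeR adjusted p = 0.834). Rrm2 passed the low-count filter only with the Littman libraries included. Mcm7, a subunit gene of the replicative helicase, showed a smaller and steadier difference, with 66.2, 56.8, 61.4 and 63.5 CPM after tamoxifen, against 49.6, 49.1, 30.1, 48.2 and 33.2 CPM after oil and no overlap (log2 fold change 0.56 ± 0.247 SE, edgeR adjusted p = 0.843).

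**Figure D3:**
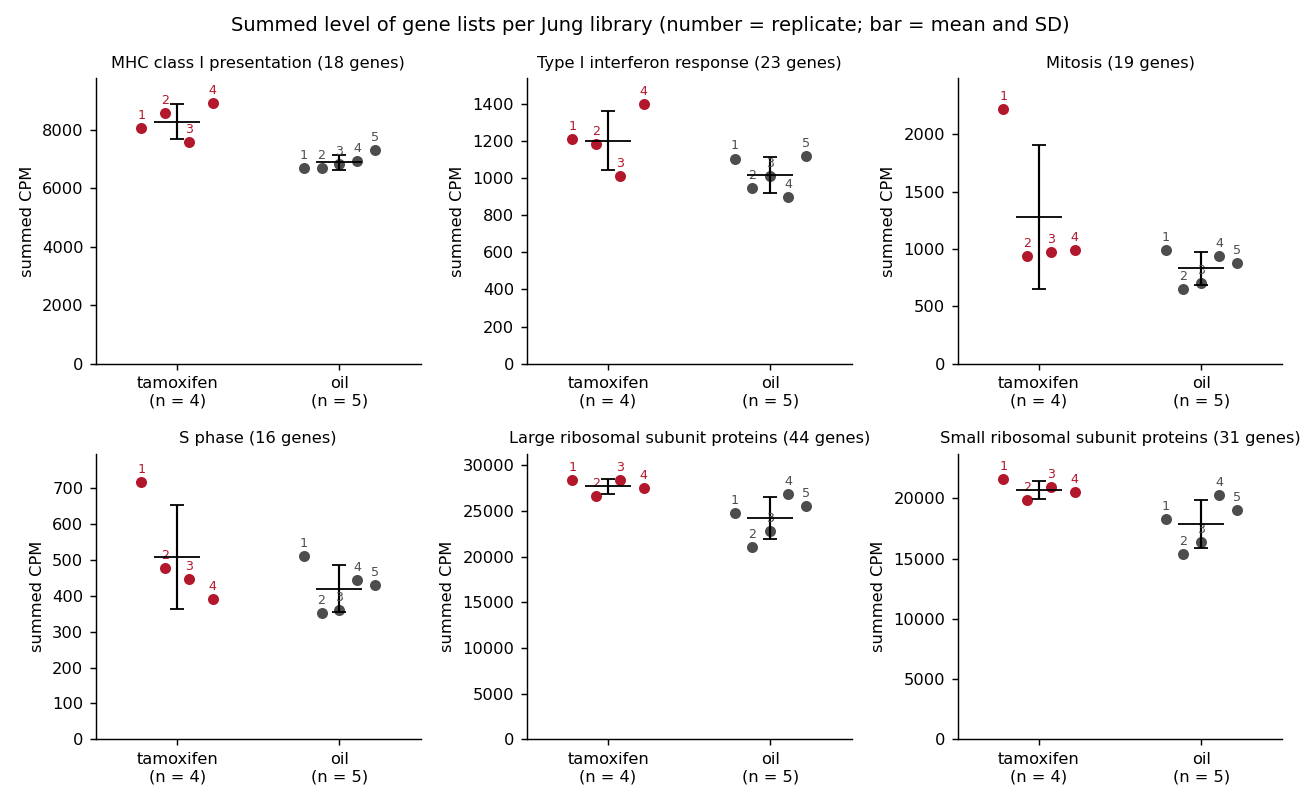
Summed CPM of the tested members of 6 gene lists in each Jung library, tamoxifen left of oil, on linear axes from 0; points carry replicate numbers, and bars give mean and SD. Tamoxifen replicate 1 stands apart for Mitosis (2223 CPM) and S phase (717 CPM). The class I sums, which include the called genes H2-D1, H2-K1 and B2m, do not overlap between the 2 groups.

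Ribosomal protein genes showed a small difference in 1 direction. Rpl39, a large subunit gene on the X chromosome (chrX:37082520-37085402, minus strand), had 510.2, 436, 482 and 429 CPM after tamoxifen, against 363, 239.9, 331, 339.9 and 346 CPM after oil, a 1.43-fold rise without overlap (log2 fold change 0.52 ± 0.114 SE, edgeR adjusted p = 0.0457). Oil replicate 2 was far below the other 4. The Rpl39 call was lost whichever of the 9 libraries was left out (log2 fold change 0.43 to 0.56, edgeR adjusted p 0.0586 to 0.338). Of 81-base windows at the end of its transcripts, 29 of 420 (6.90%) also occurred in transcripts of Gm12013 and Rpl39-ps. In all, 44 of 44 tested large subunit genes and 30 of 31 small subunit genes had a log2 fold change above 0, with medians of 0.17 and 0.25. At an unadjusted edgeR p below 0.05 there were 16 and 18 of these, against 3.36% of all tested genes that were higher at that level. In 5 of each list every tamoxifen library lay above every oil library, against 1.24% of all tested genes. Rps27a, which encodes a ubiquitin-ribosomal fusion protein, had 1106, 1083, 1057 and 1164 CPM after tamoxifen, against 819.8, 714, 810.4, 931 and 1032 CPM after oil (log2 fold change 0.35 ± 0.104 SE, edgeR adjusted p = 0.387). Rpl5, a 5S RNA-binding large subunit gene, had 1724, 2036, 1832 and 1959 CPM after tamoxifen, against 1415, 1451, 1495, 1691 and 1614 CPM after oil (log2 fold change 0.30 ± 0.102 SE, edgeR adjusted p = 0.629). In the fit of the Jung libraries alone both were called (edgeR adjusted p 0.0219 for Rps27a and 0.0153 for Rpl5). Summed over the large subunit list, the level was 28354, 26609.8, 28369 and 27506 CPM in tamoxifen replicates 1 to 4, against 24759, 21081, 22791, 26830.0 and 25593 CPM in oil replicates 1 to 5. Oil replicate 4 reached into the tamoxifen range, and oil replicates 2 and 3 were lowest. The medians stayed above 0 when any 1 library was left out (0.13 to 0.23 for the large and 0.20 to 0.28 for the small subunit). Nuclear-encoded respiratory chain genes had a median of 0.05 (30 of 45 above 0), mitochondrially encoded mRNAs 0.01 (6 of 9) and constitutive proteasome genes 0.04 (14 of 26), with 0 called in each by edgeR, DESeq2 and limma-voom. Sdhb, a complex II subunit gene, had 52.4, 78.9, 66.9 and 78.6 CPM after tamoxifen, against 49.6, 26, 60.2, 42.8 and 27.7 CPM after oil (log2 fold change 0.72 ± 0.248 SE, edgeR adjusted p = 0.642).

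Genes that define resting microglia showed small differences, none of which passed the test. Cx3cr1 had 2264, 2058, 2075 and 2077 CPM after tamoxifen, against 2342, 2379, 2108, 2208 and 2170.1 CPM after oil, with overlap between groups (log2 fold change -0.08 ± 0.0743 SE, edgeR adjusted p = 0.972). Littman Cre+ libraries, also heterozygous, had 1510.1 ± 107 CPM, and the 5 Cx3cr1+/+ Littman Cre- libraries 4071 ± 80.3 CPM (SD). Of 34 tested homeostatic genes 0 were called by edgeR, DESeq2 or limma-voom, and 5 were above 0, against 50.0% of all tested genes. Their median was -0.06 (-0.10 to -0.04 when 1 library was left out). Gpr34, a lysophosphatidylserine receptor gene, had 1246, 1249.8, 1375 and 1342 CPM after tamoxifen, against 1564, 1494, 1487, 1507 and 1594 CPM after oil, without overlap (log2 fold change -0.23 ± 0.0904 SE, edgeR adjusted p = 0.823). C1qa, a chain of the complement starter C1q, had 2832, 2594, 2529 and 2071 CPM after tamoxifen, against 3112, 2959.6, 2612, 3075 and 2809.6 CPM after oil, and tamoxifen replicate 4 was the lowest (log2 fold change -0.22 ± 0.0852 SE, edgeR adjusted p = 0.823). Ctss, the gene of the lysosomal protease cathepsin S, went the other way, with 6486, 8897, 7423 and 8817 CPM after tamoxifen, against 6540.4, 6983, 7369.9, 7084 and 6889.6 CPM after oil (log2 fold change 0.18 ± 0.0744 SE, edgeR adjusted p = 0.834). The 28 tested lysosome genes had a median of 0.02 and 18 above 0.

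Disease-associated and inflammatory genes lay on both sides of 0. Of 19 tested disease-associated genes 0 were called by edgeR, DESeq2 or limma-voom, 7 were above 0 and the median was -0.05, with 3 higher and 2 lower at an unadjusted edgeR p below 0.05. Axl, the receptor kinase gene for the ligand Gas6, had 55.2, 85.2, 16.7 and 48.4 CPM after tamoxifen, against 20.9, 11.6, 27.4, 34.8 and 22.1 CPM after oil (log2 fold change 1.09 ± 0.348 SE, edgeR adjusted p = 0.517). Its tamoxifen replicates 1, 2 and 4 lay above all oil libraries and replicate 3 among them. Cd52, a surface glycoprotein gene of leukocytes, had 196, 208, 131 and 245 CPM after tamoxifen, against 112, 92.5, 120.5, 120.4 and 138 CPM after oil (log2 fold change 0.73 ± 0.188 SE, edgeR adjusted p = 0.175), and replicate 3 was again the tamoxifen library inside the oil range. Cd52 passed without tamoxifen replicate 3 (log2 fold change 0.88, edgeR adjusted p = 0.0295), without the low-count filter (0.00224) and in the fit of the Jung libraries alone (0.00785). The CC chemokine gene Ccl9 came closest to a call among lower genes, with 88.2, 151, 142 and 148 CPM after tamoxifen, against 232, 197, 178, 308 and 213 CPM after oil and no overlap (log2 fold change -0.78 ± 0.174 SE, edgeR adjusted p = 0.0509). It passed with RLE size factors (edgeR adjusted p = 0.0478), without the low-count filter, in the fit of the Jung libraries alone and with sex or the replicate block as a term, and in 0 of the 9 fits that left out 1 library. The related chemokine gene Ccl6 had 80.0, 88.4, 92 and 45.4 CPM after tamoxifen, against 96.6, 109.8, 95.8, 177 and 144 CPM after oil, also without overlap (log2 fold change -0.70 ± 0.203 SE, edgeR adjusted p = 0.365). Of 15 tested inflammatory cytokine and NF-kB genes 0 were called by those 3 tools, 5 were above 0, and the median was -0.03. Nfkb1, which encodes the p105 precursor of NF-kB p50, had 298, 306, 284 and 327 CPM after tamoxifen, against 313, 347, 369.6, 361 and 388 CPM after oil (log2 fold change -0.23 ± 0.11 SE, edgeR adjusted p = 0.879). Of 12 tested immediate early and dissociation genes 1 was above 0, against 50.0% of all tested genes. Their median was -0.03, with 0 at an unadjusted edgeR p below 0.05. With 1 oil library left out 2 to 4 of 12 tested members were above 0, and with 1 tamoxifen library left out 5 or 6 of 14.

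Tamoxifen is itself an estrogen receptor ligand and acts on sterol enzymes, so lists for both were followed. Of 6 tested estrogen receptor targets 0 were called by edgeR, DESeq2 or limma-voom. Igfbp4, which encodes a binding protein of insulin-like growth factors, had 306, 309, 301 and 299 CPM after tamoxifen, against 238, 214, 172, 222 and 244 CPM after oil, without overlap (log2 fold change 0.48 ± 0.127 SE, edgeR adjusted p = 0.221). In the fit of the Jung libraries alone its edgeR adjusted p was 0.0456. The 11 tested genes of cholesterol synthesis and sterol uptake had a median of -0.04, with 5 above 0 and 0 at an unadjusted edgeR p below 0.05.

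Among the 10 genes with the smallest p in each direction at 20 CPM or more were others with no overlap between groups. Epb41l3, the gene of the membrane skeleton protein 4.1B, had 46.9, 31.6, 16.7 and 42.3 CPM after tamoxifen, against 10.4, 14.5, 16.4, 8.03 and 13.8 CPM after oil (log2 fold change 1.42 ± 0.359 SE, edgeR adjusted p = 0.175). Its groups were apart only by 16.7 against 16.4 CPM. Epb41l3 passed without tamoxifen replicate 3 (log2 fold change 1.66, edgeR adjusted p = 0.0287). In the fit of the Jung libraries alone it fell below the low-count filter and was not tested. Cd34, a sialomucin gene, had 99.3, 119.9, 97.6 and 109 CPM after tamoxifen, against 70.5, 37.6, 60.2, 80.3 and 58.1 CPM after oil (log2 fold change 0.78 ± 0.2 SE, edgeR adjusted p = 0.175). On the lower side, Atf4, the transcription factor gene of the integrated stress response, had 77.2, 136, 145 and 109 CPM after tamoxifen, against 183, 208, 151, 155 and 166 CPM after oil (log2 fold change -0.57 ± 0.157 SE, edgeR adjusted p = 0.292). Ppm1l, a protein phosphatase gene, had 46.9, 82.1, 69.7 and 39.3 CPM after tamoxifen, against 109.7, 89.6, 95.8, 112 and 102 CPM after oil (log2 fold change -0.78 ± 0.2 SE, edgeR adjusted p = 0.175). In both genes all tamoxifen libraries lay below all oil libraries. The same held for Thrsp, a lipogenesis gene (log2 fold change -1.17), Zcchc14 (-0.85), the helicase gene Dhx36 (-0.51), Lrba (-0.47) and Gfm2, which encodes a mitochondrial ribosome recycling factor (-0.31). Pacsin1, an endocytic adaptor gene, overlapped between groups at a log2 fold change of -0.99. In the fit of all 19 postnatal libraries with the low-count filter none of these 8 reached an edgeR adjusted p under 0.175. In the fit of the Jung libraries alone Gfm2 was called lower (edgeR adjusted p = 0.031), and the other 7 were not (0.0544 to 0.265).

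The Littman comparison of the same table set Cre+ against Cre- pups, all given tamoxifen, and shares no library with the Jung one. It called 552 genes (7.80%), 323 higher (4.56%) and 229 lower (3.24%) in Cre+. All 6 genes called in Jung pups were among the 323. Sp100 and Gm4951 passed the low-count filter only with the Littman libraries included, so their place among the 323 is not independent of that filter. Of these 323 genes 250 (77.4%) had a log2 fold change above 0 in Jung pups, with a Jung median of 0.17, against a Littman median of 0.64. Of the 229 lower genes 41 (17.9%) were above 0 in Jung pups, with a Jung median of -0.12, against a Littman median of -0.64. Among all tested genes 50.0% were above 0 in Jung pups. The lists differed in how many of their members passed. Of 23 interferon genes Littman Cre+ had 19 called higher and a median of 1.41, and of 18 class I genes 8 and 0.41. Of the ribosomal genes 27 of 44 and 15 of 31 were called higher in Littman Cre+, with medians of 0.38 and 0.32. Mitosis genes had a Littman median of 0.49 with 2 called.

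The difference between the effects (Jung tamoxifen over oil minus Littman Cre+ over Cre-) was called for 25 genes (0.353%), 7 higher (0.0989%) and 18 lower (0.254%). The kind of control differs between the sides, so line and control cannot be told apart. H2-K1 averaged 490.2 ± 96.3 CPM in Jung tamoxifen and 288 ± 37.1 in Jung oil libraries, and 1106 ± 119 in Littman Cre+ and 309 ± 42.3 in Littman Cre- libraries, and its difference was -1.07 ± 0.165 (log2 ± SE, edgeR adjusted p = 0.000168). H2-D1 averaged 537 ± 83.3 CPM in Jung tamoxifen and 259.7 ± 24.9 in Jung oil libraries, and 1149 ± 143 in Littman Cre+ and 336 ± 44.5 in Littman Cre- libraries, and its difference was -0.74 ± 0.16 (log2 ± SE, edgeR adjusted p = 0.0116). The H2-D1 difference missed the threshold without Jung tamoxifen replicate 3 (edgeR adjusted p = 0.0623). B2m averaged 4222 ± 449.5 CPM in Jung tamoxifen and 3302 ± 183 in Jung oil libraries, and 6525 ± 343 in Littman Cre+ and 3522 ± 235 in Littman Cre- libraries, with a difference of -0.54 ± 0.103 (log2 ± SE, edgeR adjusted p = 0.00357). All 3 genes rose in both comparisons, and by less in the Jung one. Cdkn1a averaged 119 ± 26.9 CPM in Jung tamoxifen and 63.6 ± 11.8 in Jung oil libraries, and 305 ± 94.1 in Littman Cre+ and 57.8 ± 9.39 in Littman Cre- libraries, with a difference of -1.49 ± 0.301 (log2 ± SE, edgeR adjusted p = 0.00552). Axl averaged 51.4 ± 28.1 CPM in Jung tamoxifen and 23.4 ± 8.57 in Jung oil libraries, and 271 ± 76.8 in Littman Cre+ and 30.1 ± 8.85 in Littman Cre- libraries, with a difference of -2.07 ± 0.454 (log2 ± SE, edgeR adjusted p = 0.0125), and missed the threshold without Jung oil replicate 4 (edgeR adjusted p = 0.0878). For Cx3cr1 the difference was 1.35 ± 0.102 (log2 ± SE, edgeR adjusted p = 1.07e-13), and there the Cre- side alone has 2 intact alleles. The other called Jung genes had differences that did not pass: Sp100 -0.32 ± 0.483, Rpl39 0.11 ± 0.161 and Gm4951 -1.32 ± 1.13 (log2 ± SE, edgeR adjusted p 0.893, 0.883 and 0.784).

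**Figure D4:**
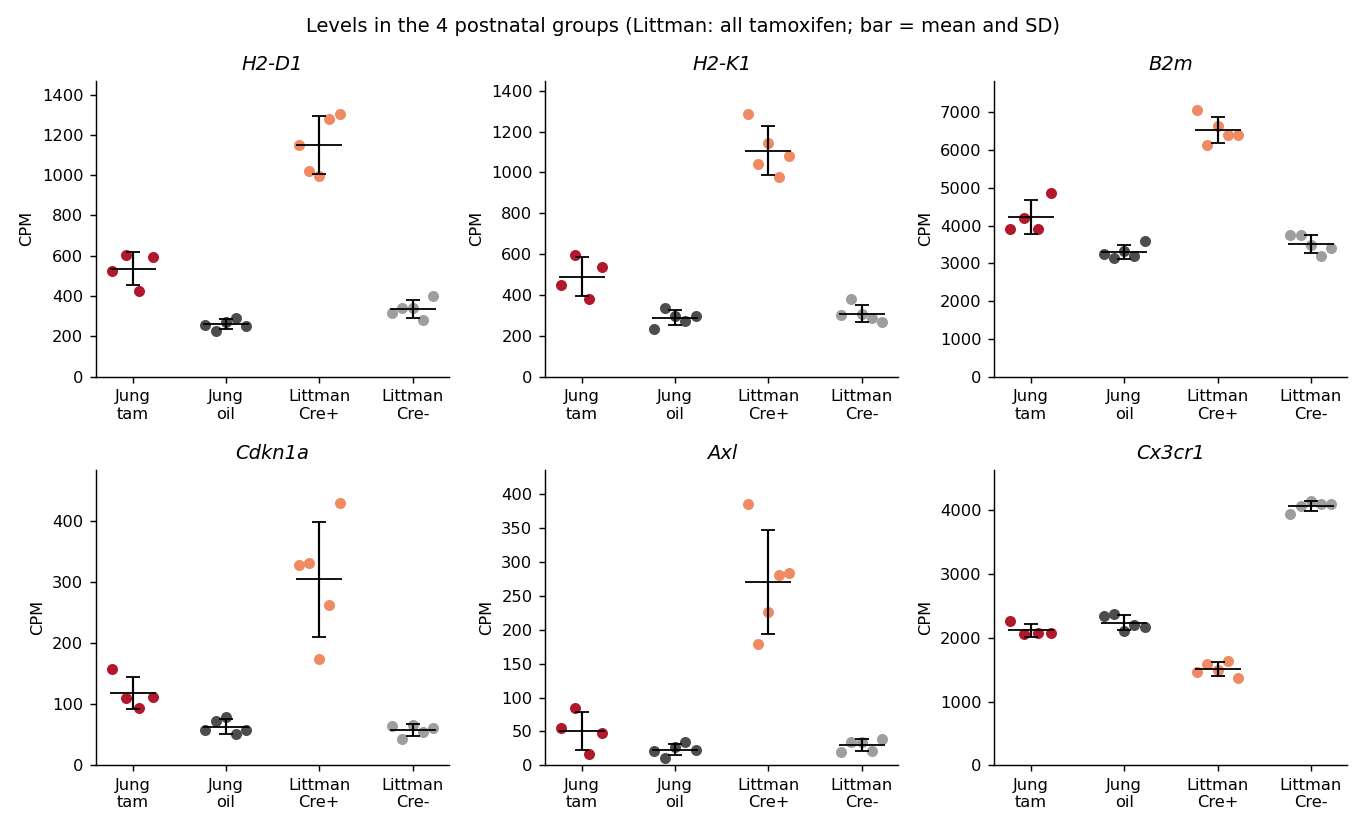
CPM of 6 genes in the 4 postnatal groups on linear axes from 0, with each library as a point and mean and SD as bars. For H2-D1, H2-K1, B2m and Cdkn1a the Jung tamoxifen libraries lie between Jung oil and Littman Cre+, and Cx3cr1 is highest in Littman Cre-.

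**Figure D5:**
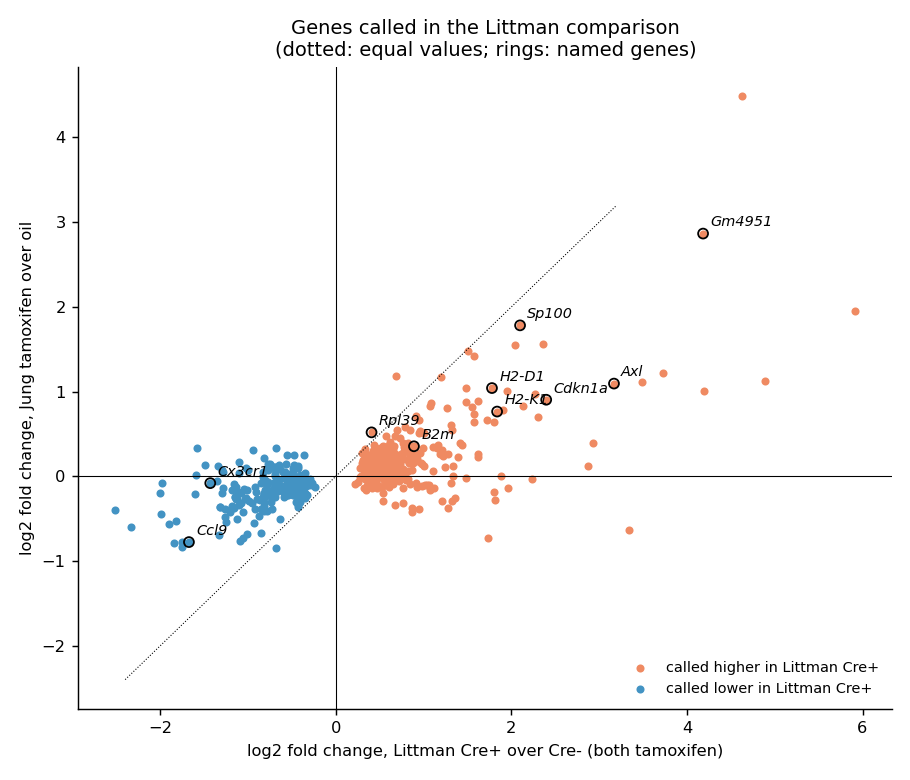
Each point is 1 of the 552 genes called in the Littman comparison, with its Littman log2 fold change on the x axis and its Jung log2 fold change on the y axis; the dotted line marks equal values. Of the genes higher in Littman Cre+, 77.4% lie above 0 on the Jung axis, and of the lower ones 17.9%.

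Tamoxifen and oil were also compared in heterozygous pups of the Littman line (Cx3cr1CreERT2(Litt) Hetero, each also labelled Vehicle; 4 libraries against 4) and in the BLZ-titled Jung libraries (Cx3cr1CreERT2(Jung) Hetero; Rosa26YFP Hetero; 4 against 4). The titles of the Jung set name BLZ, short for the microglia-depleting drug BLZ945, while its treatment labels do not, and its age is not given per library. Both sets lie in other tables, normalised separately, so values stand side by side and were not tested across tables. In the Littman pups edgeR called 1556 of 4953 genes (31.4%), and in the BLZ-titled Jung set 0 of 5163 (0.00%), as did DESeq2 and limma-voom, with 287 at an unadjusted edgeR p below 0.05. H2-D1 averaged 1532 ± 334 CPM after tamoxifen and 286 ± 33.4 CPM after oil in the Littman pups (log2 fold change 2.42 ± 0.293 SE, edgeR adjusted p = 1.03e-07), and 839 ± 95 and 716 ± 70.2 CPM in the BLZ-titled Jung tamoxifen and oil libraries (log2 fold change 0.23 ± 0.183 SE, edgeR adjusted p = 0.89). For H2-K1 the means were 1820.3 ± 416 CPM after tamoxifen and 234 ± 25.4 CPM after oil in the Littman pups (log2 fold change 2.96 ± 0.343 SE, edgeR adjusted p = 3.95e-08), and 771 ± 113 and 614 ± 68.4 CPM in the BLZ-titled Jung tamoxifen and oil libraries (log2 fold change 0.33 ± 0.197 SE, edgeR adjusted p = 0.886). Cdkn1a had means of 826 ± 177 CPM after tamoxifen and 141 ± 61.3 CPM after oil in the Littman pups (log2 fold change 2.54 ± 0.29 SE, edgeR adjusted p = 3.20e-08), and 45.4 ± 27 and 35.8 ± 18.3 CPM in the BLZ-titled Jung tamoxifen and oil libraries (log2 fold change 0.30 ± 0.411 SE, edgeR adjusted p = 0.942). Rpl39, higher after tamoxifen in the postnatal Jung pups, fell in the Littman pups, with 381 ± 151 CPM after tamoxifen and 798 ± 146 CPM after oil in the Littman pups (log2 fold change -1.09 ± 0.26 SE, edgeR adjusted p = 0.00166), and 499 ± 138 and 403 ± 134 CPM in the BLZ-titled Jung tamoxifen and oil libraries (log2 fold change 0.31 ± 0.231 SE, edgeR adjusted p = 0.886). In these Vehicle-labelled Littman pups 42 of 44 large and 30 of 32 small ribosomal subunit genes were called lower after tamoxifen, against 15.3% of all tested genes. The postnatal Jung pups had 44 of 44 and 30 of 31 above 0. The postnatal Littman comparison went the same way as the Jung one, with 27 of 44 and 15 of 31 called higher in Cre+.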

How the data were processed

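UMI counts per gene were deposited by the authors as whole numbers. Per the submitters' processing notes, the tools were HISAT2, featureCounts, UMI-tools and Trim Galore, with build GRCm38. No version, setting, strand mode or rule for multi-mapping reads is given in the sources used here. The 9 Jung and 10 Littman postnatal libraries were fitted together with edgeR 4.0.16 (limma 3.58.1, R 4.3.3) after filterByExpr and TMM normalization, 1 coefficient per group, with the quasi-likelihood test and Benjamini-Hochberg adjustment over 7076 genes (threshold 0.05). DESeq2 1.42.0 and limma-voom were alternatives. Tables and figures used Python 3.11.15, pandas 2.3.3, scipy 1.17.1 and matplotlib 3.10.9. The fit was tested on simulated data. Library totals of 329329 to 399953 counts limit genes under about 20 CPM to a few molecules; intervals cover counting error only. Members and gene lists were chosen with earlier results of these data known. Named genes were Cx3cr1, Cdkn1a, genes called in any fit of all 9 libraries or in the Jung minus Littman difference, the 10 smallest p-values in each direction at 20 CPM or more, the class I list and the 3 smallest p-values of every other list.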

Additional observations from a re-analysis of the deposited data

Results flagged for a closer look

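In 10 of 96 gene groups tested, 1 library lay far from the others of its group. The rule flags about 1 in 20 for independent, normally distributed values. These genes were chosen by their results and several share the same apart library, so the 10 cannot be compared with that rate. Among the tamoxifen libraries the apart values were Mki67 at 292 CPM (the others 72.5 to 85.2), Top2a at 199 (50.5 to 72.6), Cenpa, a centromere histone gene, at 121 (47.3 to 57.4) and Cx3cr1 at 2264 (2058 to 2077). Ccl9 stood at 88.2 CPM, below the others at 142 to 151, and all 5 of these values belong to replicate 1. Thrsp was at 25.1 CPM in tamoxifen replicate 3 (the others 15.1 to 16.5). Among the oil libraries Rpl39 was at 239.9 CPM in replicate 2 (331 to 363), Zcchc14 at 65.3 in replicate 1 (94.1 to 104.0), and Dhx36 at 169 (136 to 145) and Rrm2 at 18.7 (5.48 to 8.30) in replicate 4.

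For 25 genes the Jung effect (tamoxifen over oil) minus the Littman effect (Cre+ over Cre-) passed edgeR's test of the difference itself. The sides use different kinds of control, so line and control cannot be told apart. The difference was above 0 for Cx3cr1 (1.35 on the log2 scale), Sdk1 (1.63), Slc24a3 (1.25), Mgll (1.14), Slmap (0.92), Nav3 (0.91) and Fscn1 (0.89). It was below 0 for the interferon-induced genes Ifitm3 (-3.98), Ifi204 (-3.18) and Ifi30 (-1.01). The class I genes H2-K1 (-1.07), H2-D1 (-0.74) and B2m (-0.54) were on the same side, as were Htra3 (-2.26), Axl (-2.07), Cdkn1a (-1.49), Lyz2 (-1.39) and the chemokine gene Ccl12 (-1.21). The rest were Csf2ra (-1.16), Cd34 (-1.13), Lgals3bp (-1.02), Olfml3 (-0.64), Ctsb (-0.62), the mitochondrial ribosomal RNA gene mt-Rnr1 (-0.60) and Grn (-0.52). When each of the 19 libraries was left out in turn, Cd34 passed in 7 of 19 fits, Slc24a3 in 11, Ifi204 and mt-Rnr1 in 16, and Axl, H2-D1, Mgll and Slmap in 18.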

How the results depend on the processing

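The Jung comparison called 6 genes, and 2 to 8 when 1 Jung library was left out (2 to 8 higher, 0 lower). It called 15 without a low-count filter (11 higher, 4 lower) and 12 in a fit of the Jung libraries alone (10 higher, 2 lower). With RLE size factors, sex as a covariate or the replicate block, 1 gene was lower. The replicate block called 7 genes in all and is given as a check only. Same-numbered libraries correlated at 0.164, 0.112, -0.160 and 0.170, and the negative pair was of opposite sex. Differently numbered pairs of the same sex correlated at 0.0618 to 0.219. These values do not show whether the numbers pair the libraries. DESeq2 called 5 and limma-voom 4. A filter at 20 CPM tested more genes (7998) and called 4. The Jung minus Littman difference called 25 genes (7 higher, 18 lower), 47 with DESeq2 (13 higher, 34 lower), 55 without a filter (18 higher, 37 lower), 11 higher with the replicate block, and 22 to 76 (5 to 28 higher, 15 to 48 lower) when 1 library was left out, the most without Littman Cre+ replicate 2. Without a filter the p53 list had 1 gene higher, Mitosis 2, the disease-associated list 1, and the erythroid list 3 lower. No called gene changed sign in these alternatives. Medians of the proteasome, lysosome, mitochondrial mRNA, cholesterol, inflammatory, DNA repair and class II lists crossed 0 when 1 library was left out. The cause of the changes was not tested. Few molecules limit Gm4951 and H2-Q7.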
